A study of Mus musculus with 4 samples.

Results

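White and brown fat cell genes are described here in lung RNA from an ovalbumin model of asthma. The set holds 10 genes of the 31044 named on the array. Their probes are the non-control ones whose gene name in the scanner files was Ucp1, Cidea, Elovl3, Adipoq, Lep, Retn, Cfd, Cidec, Plin1 or Fabp4. Probes were taken by these names alone. The genes themselves were chosen with earlier results of these data known, so they are not a list set blind to the data. They have 12 of the 39429 different probes, on 21 spots, and all 10 also have a row in the authors' value table.

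The groups were Pla2g3-/- lung after antigen challenge, Pla2g3+/+ lung after antigen challenge, Pla2g3-/- control lung and Pla2g3+/+ control lung. Pla2g3 encodes group III secreted phospholipase A2. Each group had 1 array, hybridised with total RNA pooled from 4 samples, so differences between arrays carry no estimate of the variation between mice. Challenge meant sensitisation with 10 µg of ovalbumin (OVA) and 1.3 mg of aluminum hydroxide on days 0 and 14, then 1% OVA aerosol for 30 min on each of days 26, 27 and 28, with lungs taken 48 h later. The labels attach that protocol to all 4 groups, so the handling of the controls is unknown here, like the strain, sex and age of the mice and the deleted part of Pla2g3.

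White fat cells store triglyceride in 1 large lipid droplet and release hormones such as leptin and adiponectin. Brown fat cells hold many small droplets and burn fatty acids in mitochondria that uncoupling protein makes leaky, so that energy leaves as heat. Healthy lung tissue has few fat cells of its own, but fat surrounds the heart, the mediastinum and the hilum, and some of these genes are also active in macrophages, endothelium or other lung cells, Fabp4 among them.

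The 60-base probes shown here are written 5′ to 3′ in lower case with no base marked. Levels below come from the Ucp1, Adipoq and Retn probes printed, but for Cidec from its other probe. The Ucp1 probe gave the lowest challenged against control value of the set, the Adipoq probe was far above background in one source and near background in the other, and Retn and Cidec had 2 probes each, of which the one nearer the 5′ end of the transcript is printed. Ucp1 lies at chr8:85821788-85821847 (plus strand, from base 1076 of its transcript), Adipoq at chr16:23157576-23157635 (plus strand, from base 766), Retn at chr8:3657312-3657371 (plus strand, from base 354) and Cidec at chr6:113378116-113378175 (minus strand, from base 552), all on mm9 as the scanner files give them.
Ucp1: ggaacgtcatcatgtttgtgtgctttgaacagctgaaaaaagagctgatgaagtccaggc
Adipoq: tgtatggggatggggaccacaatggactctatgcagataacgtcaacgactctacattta
Retn: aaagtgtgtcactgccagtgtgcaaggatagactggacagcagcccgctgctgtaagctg
Cidec: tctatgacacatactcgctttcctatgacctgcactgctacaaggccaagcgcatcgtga

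Values came from 2 sources, the scanner files and the authors' value table, and each level below is a linear signal divided by the 75th percentile of its array. Each array had 43020 non-control spots, of which 79.2% to 81.9% were well above background in the scanner files and 79.8% to 82.1% passed the limit used for the table. The sources did not hold the same measurement under the same group name. A table column correlated with the scanner file of its own name at r = 0.911 to 0.919 across genes, and with the files of other names at 0.911 to 0.917. Genes are not independent replicates, and these correlations are a description only. Sftpc, the surfactant protein C of alveolar type 2 cells, averaged 6.99 in the table and -0.74 in the scanner files on the log2 scale, and Ager, a marker of alveolar type 1 cells, averaged 3.66 and -5.09. Both markers of alveolar cells were below the 75th percentile of the array in the scanner files and well above it in the table. Both sources are reported for each comparison, and no test was made between them.

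The targeted gene went against the labels in both sources. The level of Pla2g3 in the table was 1.04 in Pla2g3-/- challenged lung, 0.0411 in Pla2g3+/+ challenged lung, 0.872 in Pla2g3-/- control lung and 0.0395 in Pla2g3+/+ control lung. It was thus 25.4-fold higher on the challenged array labelled knockout and 22.1-fold higher on the control one, and in the scanner files it was 14.9-fold and 9.14-fold higher. A second Pla2g3 probe gave 14.8-fold and 16.2-fold in the table and 23.5-fold and 4.35-fold in the scanner files, higher each time on the array labelled knockout. The deleted part of the gene is not given, so these probes do not settle the genotype. In what follows, KO-labelled and WT-labelled name the arrays for this reason, and every direction between genotypes rests on the labels.

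The uncoupling protein gene Ucp1, which defines brown and beige fat cells in mice, was the member that differed most in the table. Its table level was 0.00453 in KO-labelled challenged lung, 0.0239 in WT-labelled challenged lung, 0.0360 in KO-labelled control lung and 0.0274 in WT-labelled control lung. The KO-labelled challenged array was low and the other 3 lay close together. That array was 7.94-fold lower than the KO-labelled control array (log2 difference -2.99), and only 4 of the 25042 genes tested in this comparison had a lower value. The WT-labelled challenged array was 1.15-fold lower than the WT-labelled control array (-0.20). Signals were low throughout: the KO-labelled challenged array lay 1.19-fold above the background limit of the table, against 7.53-fold to 11.4-fold on the others. Probes spotted several times on the scanner arrays give a sense of reading error. Read from the table at the level of Ucp1, their spots had a median SD of 0.33 on the log2 scale on the KO-labelled challenged array and 0.088 to 0.12 on the others.

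The scanner files gave another pattern for Ucp1. Its scanner level was 0.0162 in KO-labelled challenged lung, 0.0132 in WT-labelled challenged lung, 0.0161 in KO-labelled control lung and 0.0226 in WT-labelled control lung. Here the WT-labelled challenged array was lowest, 1.72-fold below its control (log2 difference -0.78 ± 0.26, Agilent's own error of the spots), and the KO-labelled arrays were nearly equal (0.01 ± 0.27). That error covers the reading of spots and not variation between mice.

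Cidea, a lipid droplet protein abundant in mouse brown fat, varied little. The table gave 0.378 in KO-labelled challenged, 0.406 in WT-labelled challenged, 0.5 in KO-labelled control and 0.331 in WT-labelled control lung. The 2 challenged arrays lay between the 2 control arrays. The scanner files gave 0.697 and 0.533 in KO-labelled and WT-labelled challenged lung, against 0.478 and 0.422 in KO-labelled and WT-labelled control lung, so that both challenged arrays were the higher ones, by 1.46-fold and 1.26-fold. Elovl3, an elongase of very long fatty acids that brown fat raises in the cold, was not above background on any array in either source.

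Among the hormone genes, Adipoq (adiponectin) gave a table level of 0.193 in KO-labelled challenged lung, 0.423 in WT-labelled challenged lung, 0.380 in KO-labelled control lung and 0.315 in WT-labelled control lung. The KO-labelled challenged array was again the lowest. It was 1.97-fold below the KO-labelled control array (log2 difference -0.98), while the WT-labelled challenged array was 1.34-fold above its control (0.42). Signal was not the limit here, since all 4 values lay 50.7-fold to 133.2-fold above the table's background limit. In contrast, the same probe in the scanner files was above background only in KO-labelled control lung, at 0.00919. KO-labelled challenged lung was at least 1.63-fold lower than that, where the dim array is set to the higher of the lowest signal well above background and its own.

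Lep (leptin), the satiety hormone of white fat, was at background on all 4 arrays of the scanner files. In the table it passed the limit on 1 array only, WT-labelled challenged lung at 0.00343, which is 1.08-fold above the limit there. Its probe is spotted 10 times, and a single scanner spot on the KO-labelled challenged array read an intensity of 76.4 against at most 9.98 for the other 9. Agilent marked that spot as an outlier and it was left out.

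Retn (resistin) is made by fat cells in mice, and its table level was 0.542 in KO-labelled challenged, 0.750 in WT-labelled challenged, 0.601 in KO-labelled control and 0.445 in WT-labelled control lung. The WT-labelled pair was 1.69-fold apart, challenged above control, and the KO-labelled pair was close. The scanner level was 0.0524, 0.0431, 0.0282 and 0.0383 in the same order of groups. There the KO-labelled pair was the one apart, challenged 1.86-fold above control (log2 difference 0.89 ± 0.21). The other Retn probe, nearer the 3′ end, kept the directions of the table but not all those of the scanner files. Its scanner values were 0.25 in the KO-labelled pair and 0.60 in the WT-labelled pair, so the WT-labelled pair was the one further apart. It put the KO-labelled challenged array 2.17-fold below the WT-labelled challenged array in the table, where the probe used gave 1.38-fold.

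Cfd (adipsin, complement factor D), a protease of the alternative complement pathway, was bright in the table, at 4.81 in KO-labelled challenged, 7.06 in WT-labelled challenged, 7.96 in KO-labelled control and 5.88 in WT-labelled control lung. The KO-labelled challenged array was lowest, 1.66-fold below its control, and the WT-labelled challenged array was 1.20-fold above its control. The scanner level was 0.0577 in KO-labelled challenged, 0.0342 in WT-labelled challenged, 0.0658 in KO-labelled control and 0.103 in WT-labelled control lung. In this source the WT-labelled challenged array was the low one, 3.02-fold below its control (log2 difference -1.59 ± 0.21), and 129 of 25820 genes were lower.

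Lipid droplet and fatty acid carrier genes were measured on all 4 arrays in both sources. Plin1 (perilipin 1), which coats the droplet and controls access of lipases, had a table level of 0.0612 in KO-labelled challenged, 0.114 in WT-labelled challenged, 0.0949 in KO-labelled control and 0.0808 in WT-labelled control lung. The arrays fall in the same order as for Adipoq, with KO-labelled challenged lung 1.55-fold below its control and WT-labelled challenged lung 1.41-fold above its own. The scanner levels of Plin1 spanned only 0.0280 in WT-labelled challenged lung to 0.0385 in KO-labelled control lung.

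Cidec, which fuses droplets into the large ones of white fat, had a table level of 1.64 in KO-labelled challenged, 1.45 in WT-labelled challenged, 2.02 in KO-labelled control and 1.63 in WT-labelled control lung. Both challenged arrays were a little below their controls, by 1.23-fold and 1.12-fold. The scanner level was 0.0269, 0.0136, 0.0283 and 0.0271 in the same order of groups, with WT-labelled challenged lung alone low, 1.99-fold below its control (log2 difference -0.99 ± 0.24). The second Cidec probe, the one printed above, put that array 1.31-fold below its control (-0.39), and the KO-labelled challenged array was lowest on it. Under normexp background correction the value of the probe used was -0.31.

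Fabp4, a fatty acid carrier of fat cells that endothelium and macrophages also make, had a table level of 3.02 in KO-labelled challenged, 3.87 in WT-labelled challenged, 3.64 in KO-labelled control and 2.44 in WT-labelled control lung. The WT-labelled challenged array was highest. The scanner level was 0.449 in KO-labelled challenged, 0.255 in WT-labelled challenged, 0.298 in KO-labelled control and 0.267 in WT-labelled control lung, with the KO-labelled challenged array apart and the other 3 close. In the KO-labelled scanner pair, where Fabp4 was 1.51-fold higher after challenge, 9 of 10 endothelial markers were higher too, 4 of them 2-fold (median log2 difference 0.74), and their part was not tested.

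**Figure D1:**
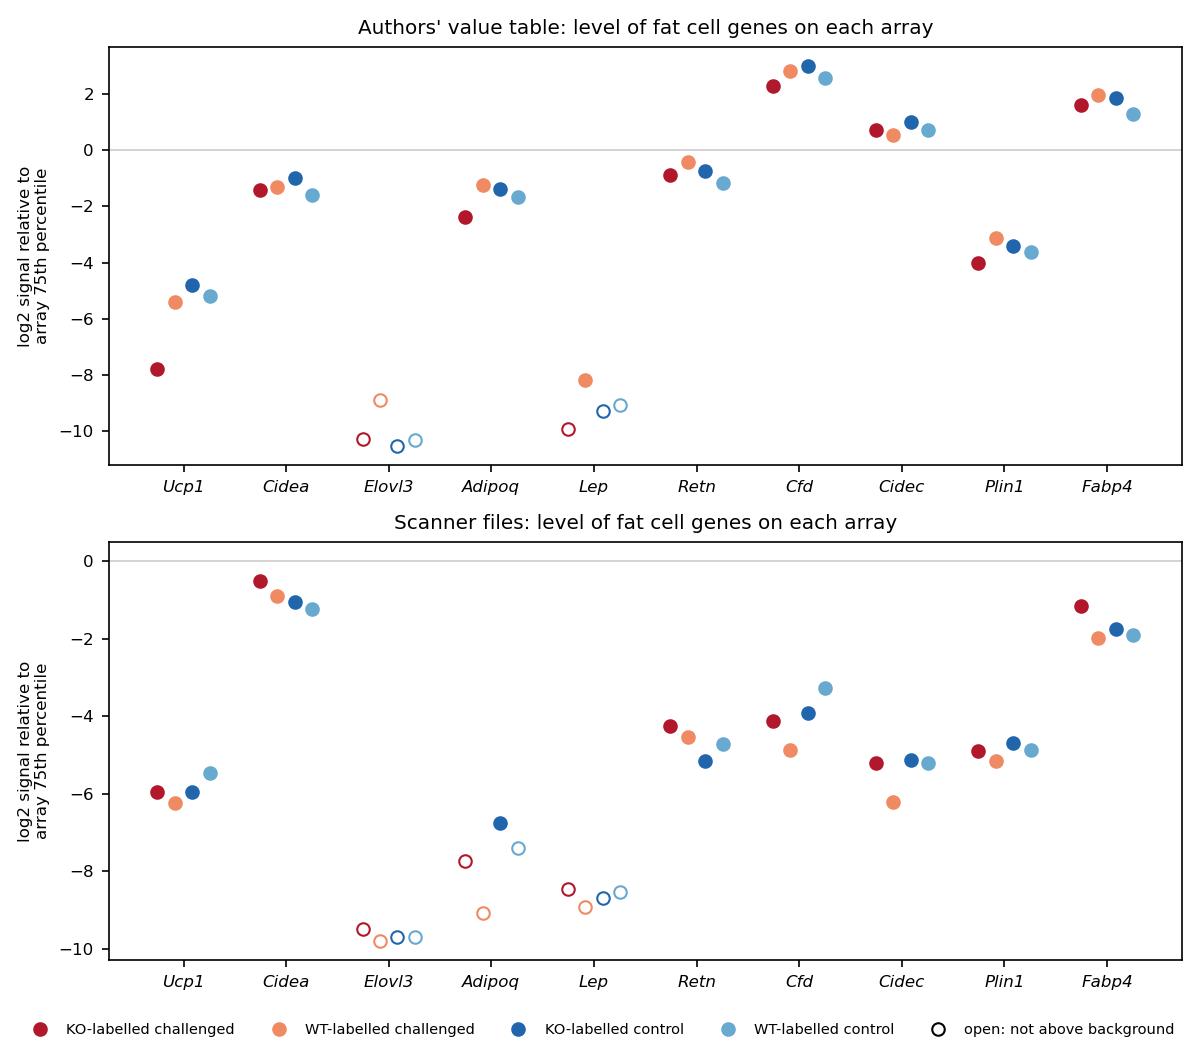
Each point is 1 array and gives the log2 signal of a fat cell gene relative to the 75th percentile of its array, in the authors' value table (top) and the scanner files (bottom); open points were not above background. In the table the KO-labelled challenged array (red) is the lowest of the 4 for Ucp1, Adipoq, Plin1 and Cfd. These are 4 of 8 fat cell genes measured on every array, against 24.8% of all genes so measured. In the scanner files WT-labelled challenged lung (orange) is the lowest for 5 of 7 such genes, against 17.7% of all genes. Cidec is 1 of the 5 on the probe used but not on its second probe.

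The first question was what antigen challenge did in each genotype. In the table, all 8 fat cell genes measured in the KO-labelled pair were lower after challenge, with a median log2 difference of -0.52 against 0.02 over all genes measured, of which 46.96% were lower. They ranged from -2.99 for Ucp1 to -0.15 for Retn. At 2-fold or more only Ucp1 differed, 1 of 8 tested, where 3.38% of all genes did in either direction and 0.767% were lower. In the WT-labelled pair of the table, 6 of the 8 were higher after challenge and 2 were lower (Ucp1 and Cidec). The median of the 8 was 0.36 against 0.01 over all genes, of which 52.53% were higher. None of the 9 tested reached 2-fold there, where 2.36% of all genes did. A lower signal in whole lung RNA can come from fewer cells of a type or from less RNA per cell, and these arrays cannot tell them apart.

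The scanner files did not show this. In their KO-labelled pair 4 of the 7 measured genes were higher after challenge and 3 were lower, where 42.65% of all genes were higher. There 0 of 8 tested reached 2-fold, against 7.24% of all genes. In their WT-labelled pair 5 of 7 were lower, with a median of -0.30 against -0.03 over all genes, of which 54.87% were lower. Cfd reached 2-fold, 1 of 7 tested, against 3.57% of all genes in either direction and 1.68% lower.

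**Figure D2:**
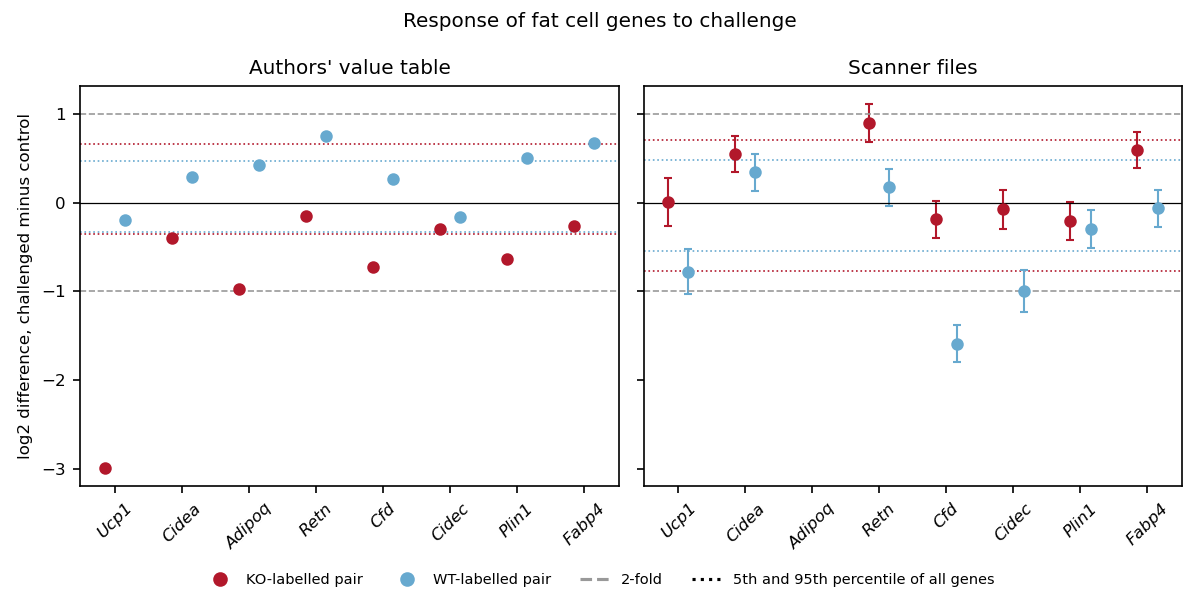
Points give the log2 difference, challenged minus control, of 8 fat cell genes in the KO-labelled pair (red) and the WT-labelled pair (blue) of each source; bars in the scanner panel are Agilent's error of the spots, dashed lines mark 2-fold and dotted lines the 5th and 95th percentile of all genes measured, and Adipoq has no point in the scanner panel because it was above background on 1 array only. All red points of the table lie below 0, and Ucp1 lies at -2.99.

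The second question was how the genotype labels differed. Among challenged arrays of the table, 7 of 8 fat cell genes were lower on the KO-labelled array and Cidec was higher. The median log2 difference of the 8 was -0.51 against 0.01 over all genes, of which 47.27% were lower. Ucp1 was 5.27-fold lower (-2.40) and Adipoq 2.19-fold lower (-1.13), so 2 of 9 tested reached 2-fold, against 4.19% of all genes in either direction and 2.47% lower. Among control arrays of the table, all 8 were higher on the KO-labelled array, by 0.23 for Plin1 to 0.59 for Cidea and a median of 0.41, against 50.69% of all genes higher. There 0 of 8 reached 2-fold, against 3.85% of all genes.

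The scanner files ran the other way among challenged arrays. All 7 measured genes were higher on the KO-labelled array, with a median of 0.39 against -0.05 over all genes, of which 40.21% were higher. The largest was Cidec at 1.98-fold (0.98 ± 0.24), and 0 of 7 reached 2-fold, against 6.43% of all genes. That count rests on the probe used for each gene: the second probes of Cidec and Retn gave -0.12 and -0.14 here. Among control arrays of the scanner files 4 of 7 were higher and 3 were lower (Ucp1, Retn and Cfd), where 46.01% of all genes were higher. There 0 of 8 tested reached 2-fold, against 5.12% of all genes.

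**Figure D3:**
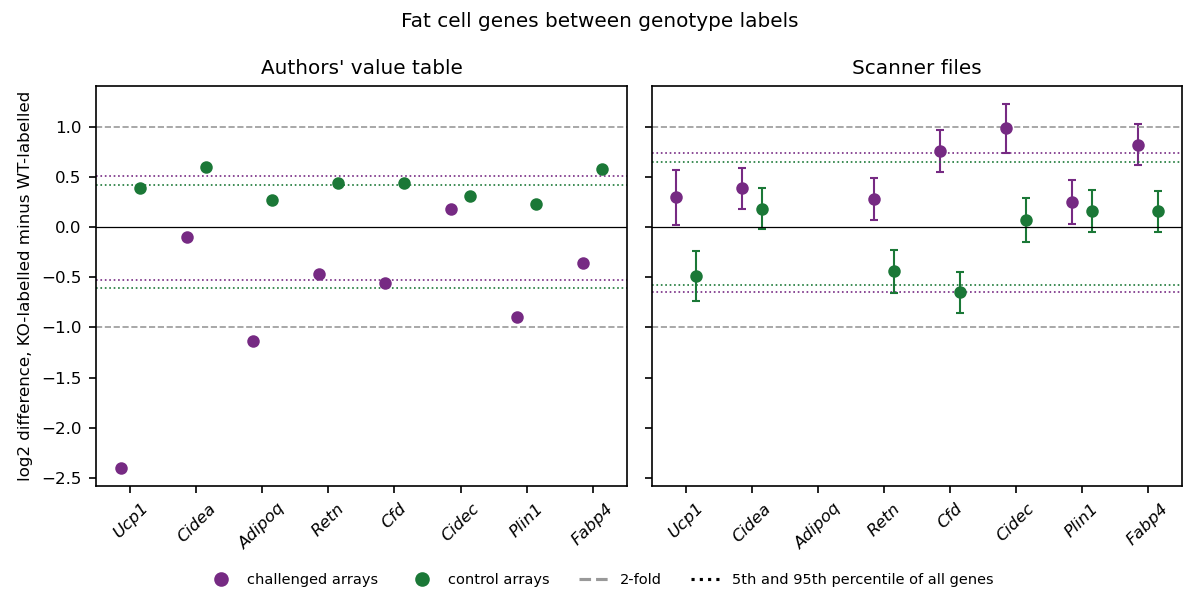
Points give the log2 difference, KO-labelled minus WT-labelled, of 8 fat cell genes among challenged arrays (purple) and control arrays (green) of each source; bars in the scanner panel are Agilent's error of the spots, dashed lines mark 2-fold and dotted lines the 5th and 95th percentile of all genes measured. Among challenged arrays 7 of 8 points lie below 0 in the table, and all 7 lie above 0 in the scanner files.

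The third question was whether the response to challenge differed between the labels, measured as the KO-labelled response minus the WT-labelled response. All 5 comparisons are built from the same 4 arrays, so they are not independent of each other. In the table this difference was below 0 for all 8 genes measured on 4 arrays, with a median of -0.96 against 0.01 over all genes, of which 47.87% were below 0. Ucp1 (-2.79), Adipoq (-1.40) and Plin1 (-1.13) passed 2-fold, 3 of 9 tested, against 3.8% of all genes in either direction and 1.87% below 0. The second Retn probe gave -1.54 in the table, also past 2-fold. With the mean of a gene's probes the count was 4 (Retn added), and under median scaling it was 4 (Cfd added). In the scanner files the difference of responses was above 0 for all 7 genes measured. Its median was 0.72 against -0.03 over all genes, of which 45.37% were above 0. The second Retn probe gave -0.35 there. Only Cfd passed 2-fold in the scanner files (1.41 ± 0.29), 1 of 8 tested, against 7.97% of all genes in either direction and 4.24% above 0, and it gave 0.90 under normexp background correction, below 2-fold. With 1 array a group these differences have no test.

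The effects averaged over the other factor could be tested, with 1 residual degree of freedom, by limma with Benjamini-Hochberg adjustment over all genes above background. No fat cell gene passed an adjusted p of 0.05, and neither did any other gene, in either source. The fit has little power for changes of the members' sizes, so this does not show that they were unchanged. Without adjustment, 2516 of 26309 genes for challenge and 2823 for genotype had p under 0.05 in the scanner files, and 2287 of 26010 and 3588 had it in the table. Of the fat cell genes, 2 (Adipoq and Cidea) were among them for challenge in the scanner files, both with a limma adjusted p of 0.514. Adipoq was the only 1 among them for genotype in the scanner files, with a limma adjusted p of 0.451, and 3 of its 4 arrays were at background. None was among them in the table. In the scanner files Cidea averaged 0.44 ± 0.13 (SE) higher after challenge on the log2 scale, higher in both pairs. In the table its averaged effect was -0.06 ± 0.23 (SE), with the KO-labelled pair lower (-0.40) and the WT-labelled pair higher (0.29). The averaged challenge effect on Ucp1 in the table was -1.59 ± 0.88 (SE), lower in both pairs, with a limma adjusted p of 0.626.

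The 2 sources differed in level as well as in direction for these genes. On the same probe, the mean log2 level in the scanner files minus that in the table was -6.70 for Cfd, -6.19 for Cidec, -6.07 for Adipoq, -3.86 for Retn and -3.37 for Fabp4, against a median of 0.37 over 25029 genes. Such a gap below -3 was found for 5 of the 10 fat cell genes and for 5.35% of all genes. Ucp1 (-0.12), Cidea (0.39), Elovl3 (0.33) and Lep (0.48) lay near that median, and Plin1 (-1.36) lay between.

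Other genes of the fat cell programme were taken from 5 lists. Of 20 genes of lipid storage and breakdown, Pck1, which makes the glycerol backbone of triglyceride in fat cells, was the only one 2-fold apart in the table's KO-labelled pair, 2.15-fold lower after challenge. In that pair 15 of the 20 were lower and 5 higher, with a median log2 difference of -0.07, and in the WT-labelled pair 7 were lower and 13 higher, with a median of 0.09. Dgat2, which completes triglyceride synthesis, was 2.49-fold lower on the KO-labelled than on the WT-labelled challenged array of the table, and Pck1 2.26-fold lower. Car3, a carbonic anhydrase abundant in fat and muscle, had a difference of responses of -1.49.

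Other genes of this list were apart in the scanner files. G0s2, an inhibitor of the triglyceride lipase Pnpla2, was 7.66-fold higher after challenge in the KO-labelled pair and 2.22-fold higher in the WT-labelled pair. Car3 was 3.50-fold and 2.96-fold lower in the same pairs, and Pck1 at least 2.04-fold lower in the WT-labelled one. Medians of the list lay at 0.01 and -0.06. Between genotype labels, G0s2 alone was 2-fold apart among challenged arrays and Lpin1 alone among control arrays. Lpin1 had log2 levels of -0.59 in KO-labelled and -1.93 in WT-labelled control lung. Both genes passed 2-fold in the difference of responses, G0s2 upward and Lpin1 downward. Neutrophil markers moved with G0s2 in this source: 7 of 10 were 2-fold higher after challenge in the KO-labelled pair (median log2 difference 2.73) and 6 of 10 in the WT-labelled pair (1.63), and their part in these values was not tested.

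Of 10 genes of fatty acid synthesis, none was 2-fold apart in either challenge pair of the table. Thrsp, a regulator of lipogenesis, had a difference of responses of -1.22 there. Scd2, a fatty acid desaturase, was in the scanner files 2.05-fold lower after challenge in the KO-labelled pair. Of 10 adipocyte regulators, none was 2-fold apart in any comparison of the table, Pparg and Cebpa included, which drive fat cell formation. Cebpd, an early factor of fat cell formation that inflammation also raises, was in the scanner files 3.24-fold higher and Klf15 2.42-fold lower after challenge in the KO-labelled pair, and Ebf1 2.22-fold lower in the WT-labelled pair. The neutrophil markers given for G0s2 were higher in the pair in which Cebpd was, and their part was not tested.

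Of 20 genes of brown fat and heat production, 19 were on the array and 17 were above background, with Fgf21 and Lhx8 at background on every array of both sources. None of the 17 was 2-fold apart in either challenge pair of the table, where 8 were lower and 9 higher in the KO-labelled pair, with a median of 0.01. Fabp3 (-0.91), Cox8b (-0.68) and Cox7a1 (-0.58) were among the lower ones there. Ppargc1b was among the higher ones, with a log2 level of -4.09 in KO-labelled challenged and -4.91 in KO-labelled control lung. Dio2, which activates thyroid hormone, was higher on the KO-labelled arrays of the table, 2.26-fold among challenged and 2.08-fold among control lungs. Cox7a1, Fabp3 and Bmp8b had differences of responses of -1.12, -1.07 and -1.03, and the first 2 of these are also active in heart and muscle. Signals of Bmp8b were low, at log2 levels of -7.22 to -6.41 on the arrays of the table. Cox8b was, in the scanner files, 2.39-fold lower after challenge in the WT-labelled pair.

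Of 14 other secretions and receptors of fat cells, 13 were on the array and none was 2-fold apart in the table. In the scanner files Angptl4, a secreted inhibitor of lipoprotein lipase, was 3.74-fold lower after challenge in the WT-labelled pair, with a difference of responses of 1.57. Trarg1, which acts in glucose transporter traffic, was 2.25-fold higher on the KO-labelled than on the WT-labelled challenged array and at least 4.03-fold higher on the control one.

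**Figure D4:**
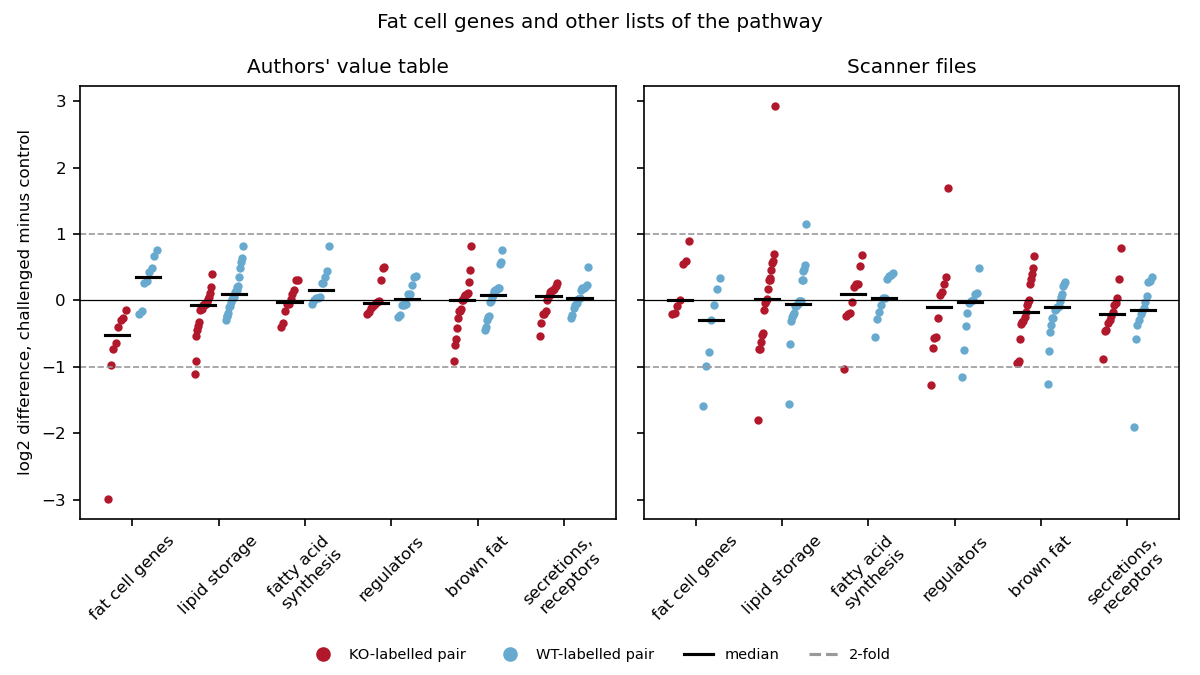
Each point is a gene above background on all 4 arrays of its source and gives the log2 difference, challenged minus control, in the KO-labelled pair (red) and the WT-labelled pair (blue), for the fat cell genes and 5 other lists; black bars are medians and dashed lines mark 2-fold. In the table the fat cell genes have medians of -0.52 and 0.36, and the 5 other lists lie closer to 0.

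Genes whose pattern over the 4 arrays was most like that of Adipoq in the table were Myl3, a myosin light chain of heart and slow muscle, Igsf1, Gab2, Anp32a and Fam151a, among 16502 genes left of the 23837 above background on all 4 arrays once the fat cell genes and clone, accession and predicted names were set aside. Likeness was the root mean square difference of log2 levels after each gene's own mean was removed, 0.056 for Myl3 and 0.13 for Fam151a. Plin1 followed at 0.13 with 6 genes closer, and Cfd at 0.21 with 32 closer. Nearest to Ucp1 in the table were Abra (0.62), Tmem45b, Fgg, Vmn1r59 and Pck1 (0.71), and 12 genes lay closer to it than Adipoq did. In the scanner files Ucp1 was nearest to Vmn1r66 (0.014), Ceacam16, Olfr1276, Cybrd1 and Haao, and 2769 of 16447 genes were closer than Plin1, the nearest fat cell gene. With 4 points, many genes share a pattern.

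Summed levels of marker genes of other tissues also differed between arrays. Of 10 heart and skeletal muscle markers, 9 were above background on all 4 arrays of the table and Myh4 on none, and their sum was 24.8 in KO-labelled challenged, 27.0 in WT-labelled challenged, 33.8 in KO-labelled control and 19.3 in WT-labelled control lung. Like 6 of the 8 fat cell genes measured, it was lower after challenge in the KO-labelled pair and higher in the WT-labelled pair. Ucp1 and Cidec were lower in both pairs. Of the 9 markers tested, 7 were lower in the KO-labelled pair (median log2 difference -0.68) and 7 higher in the WT-labelled pair (0.42). Their part in the fat gene differences was not tested. The 10 endothelial markers summed to 165.0 to 173.7 on the 4 arrays of the table, and the 9 alveolar macrophage markers on the array to 180.4 and 174.0 in KO-labelled and WT-labelled challenged lung, against 163.6 and 143.4 in KO-labelled and WT-labelled control lung. The neutrophil sum was 95.2 and 98.4 in challenged lung, against 86.3 and 76.6 in control lung, in the same order of labels. Single neutrophil markers did not all follow that sum. In the KO-labelled pair 5 of the 10 were higher after challenge and 5 lower (median log2 difference -0.004). In the WT-labelled pair 8 were higher and 2 lower (0.52). Of the 9 alveolar macrophage markers, 6 were higher and 3 lower in the KO-labelled pair (median 0.09). In the WT-labelled pair 5 of those 9 were higher and 4 lower (0.28).

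In the scanner files muscle markers summed to only 0.385 to 0.417, with Myh4 at background. There 8 of 8 thymocyte markers were above background on all 4 arrays, with a sum of 4.24 in KO-labelled challenged, 3.21 in WT-labelled challenged, 26.7 in KO-labelled control and 3.72 in WT-labelled control lung. Parathyroid and thyroid markers summed to 1.44, 0.646, 2.01 and 3.13 in the same order, with 5 of 6 above background on all arrays. The WT-labelled challenged array was lowest for 5 of the 7 fat cell genes and for 17.7% of all genes. It was also lowest for the thymocyte, the parathyroid and thyroid, and the fibroblast sums. Muscle markers summed to 0.413 on that array, above 0.385 in KO-labelled control lung. The endothelial sum was highest there (85.3), and the alveolar epithelial, conducting airway, alveolar macrophage and neutrophil sums were lowest on other arrays. The part of these markers in the fat gene differences was not tested.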

How the data were processed

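Spot intensity in the scanner files came from Agilent Feature Extraction 11.5.1.1, per the file headers (1-colour, Cy3, 1 slide, 1 scan), with probe coordinates on mm9. The authors' deposited value table holds a linear signal per spot, with a 75th percentile of about 1.00 in each column. The sources used here do not say how the authors made it. Scanner intensities were taken to log2 less the array's 75th percentile, table signals to log2 alone. The plan had the table as an alternative; because its columns correlated about as well with scanner files of other names as with those of their own, both are reported.

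Of 39429 probes, 28330 were named by accession, 2204 by symbol and 174 by synonym through RefSeq, and 8721 kept the file's name. A gene is its probe with the highest mean. Spots marked uneven (20) or population outlier (317) were left out, and 0 were saturated. Above background means Agilent's flag, or, for table signals, 5 times the median of the 153 negative controls, a rule that gave Agilent's call for 99.2% of scanner spots. Genes 2-fold or more apart were counted where at least 1 array compared was above background, and a side at background gives a bound. Averaged effects used limma 3.58.1 in R 4.3.3, tested on simulated data, and has little power at the sizes fitted for the members. Precision is limited by 1 array per group.

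Named genes are the 10 members with every probe, Pla2g3, and the 5 genes most like Ucp1 and Adipoq. Up to 4 genes per list and comparison, those with the largest difference or a bound, are named too. Pparg, Cebpa and the alveolar epithelial markers, Sftpc and Ager among them, were named after their values were seen. The members and lists were chosen with earlier results of these data known. Of the 9 marker lists, the alveolar epithelial sums ranged over 312.2 to 331.8 in the table and 58.1 to 65.1 in the scanner files, conducting airway 214.4 to 224.7 and 447.7 to 539.6, and fibroblast 118.3 to 133.0 and 3.94 to 5.33. Endothelial sums in the scanner files ranged over 65.0 to 85.3, alveolar macrophage 14.2 to 28.8 and neutrophil 231.0 to 309.9, sums that bright genes such as Ltf and Ly6c1 lead; thymocyte and parathyroid and thyroid sums in the table ranged over 3.70 to 4.84 and 0.0498 to 0.0700. Sample columns of other series numbered 0. Alternatives are in the closing section.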

Additional observations from a re-analysis of the deposited data

Results flagged for a closer look

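The response of Adipoq to challenge differed in direction between the genotype labels in the table. It was lower after challenge in the KO-labelled pair (log2 difference -0.98) and higher in the WT-labelled pair (0.42), a difference of -1.40. Plin1 gave -0.63 and 0.50 in the same pairs, a difference of -1.13. Each pair is 1 array against 1 array, and the difference was not tested. In the scanner files Plin1 gave a difference of 0.09 ± 0.30 (Agilent's error of the spots), and Adipoq was above background on 1 array only.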

How the results depend on the processing

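Alternatives were median scaling, quantile normalization, normexp background correction with quantile normalization (scanner files), filters requiring all 4 arrays or none, the mean of a gene's probes, a 3-fold rule and, for scanner values, 3 times the spot error. Member differences under them numbered 433, and many of these could not move. The filter for all 4 arrays leaves values unchanged, and dropping the filter alters only genes with an array at background. Among genes above background, the mean of probes alters only Retn and Cidec, which have 2 probes each. Of the 433, 427 moved by less than 1.5-fold and 6 by more. A sign changed in 7, none of a difference past 2-fold: 6 were differences of responses of Adipoq (scanner files) and Lep (table), which have arrays at background and no value above, and 1 was Cidec between control genotypes (scanner files), -0.17 with the mean of probes against 0.07. Of 70 counts of members past the fold rule, 58 stayed within 1.5 times the value reported and 12 did not. In the scanner files, the KO-labelled against WT-labelled count among challenged arrays was 1 (Cidec) under median scaling and under quantile normalization and 1 (Adipoq) with no filter, the WT-labelled challenge count was 2 with no filter, and the difference of responses gave 0 under normexp, where Cfd gave 0.90, and 0 at 3-fold. In the table, the KO-labelled challenge count was 2 under median scaling (Adipoq added at -1.01). With no filter the table counts were 1 for the WT-labelled challenge, 4 for challenged genotypes and 5 for the difference of responses, through Elovl3 and Lep at background, and the 3-fold rule left 1 (Ucp1) in the last 2. For Cidec in the scanner files normexp gave -0.31 in the WT-labelled pair and 0.35 between challenged genotypes. The cause was not tested. Normexp lowered the count over all genes from 1845 to 716 and from 921 to 193 in the KO-labelled and WT-labelled challenge pairs, from 1656 to 483 and from 1313 to 468 between genotypes in challenged and control lung, and from 2097 to 631 for the difference of responses. It moved the share of higher calls to 69.43% from 52.77% in the WT-labelled pair and to 76.92% from 62.99% between control genotypes, and quantile normalization moved that of the table's difference of responses to 40.12% from 50.86%. No paired analysis was possible because each group had 1 array, and for the same reason no array was left out. Ucp1, near the background limit on 1 array, and Adipoq in the scanner files are limited by signal.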
